A study of Mus musculus with 2 samples.

Results

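The Hippo pathway restrains tissue growth, and its 10 genes described here are the coactivators Yap1 and Wwtr1 (also called TAZ), the DNA-binding factors Tead1, Tead2, Tead3 and Tead4, the kinases Lats1 and Lats2, and the upstream proteins Nf2 and Amotl2. They were chosen by gene symbol as core parts of the pathway, and all 10 were found among the 43346 Ensembl genes of the deposited tables. The study measured total RNA in the stomach of healthy mouse embryos of the B6NCrl strain at embryonic day 16.5. Its 1 group holds 2 biological replicates, each a pool of male and female embryos, with no treatment and no altered gene given in the labels. The pool of replicate 2 came from 41 embryos, and the number for replicate 1 is not given. Each library was made from 10 ng of RNA longer than 200 nt with synthetic ERCC spike-in RNA. With 1 group there is no condition to compare, so levels are given for both libraries, genes are set against each other within a library, and replicate 1 is set against replicate 2. The standard deviations (SD) below measure the spread between 2 pools of whole stomach. In such bulk RNA, fewer cells of a type and less RNA per cell cannot be told apart.

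When the pathway is active, the kinases Stk3 and Stk4 (also called MST2 and MST1), with the scaffold Sav1, activate Lats1 and Lats2, which work with Mob1 proteins. The Lats kinases phosphorylate Yap1 and Wwtr1, which are then held in the cytoplasm or degraded. When the pathway is inactive, Yap1 and Wwtr1 enter the nucleus and bind Tead proteins, which carry the DNA-binding domain that the coactivators lack. Much of this control acts on proteins and is not seen in RNA levels. In the gut, Yap1 and Wwtr1 are known to act in both the epithelium and the mesenchyme during development.

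The sequences that carry the results on isoforms are shown first. They were read from the GENCODE M21 transcripts on GRCm38, the assembly of the deposited mm10 tables. Yap1 has an optional coding exon of 48 nt, which Yap1-201 includes and the leading transcript Yap1-202 skips. It lies at chr9:7950492-7950539 on the minus strand. Capitals mark the optional exon, and the lower-case flanks are 24 nt of coding sequence on either side.

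Yap1-201 with the exon: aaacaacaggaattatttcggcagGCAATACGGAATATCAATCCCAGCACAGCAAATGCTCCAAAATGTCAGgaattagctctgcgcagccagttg

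Yap1-202 without the exon: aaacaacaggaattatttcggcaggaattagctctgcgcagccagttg

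Nf2 encodes merlin, a membrane-linked protein that promotes Lats activation, and its transcripts end their coding sequence in alternative ways. The last coding segment of Nf2-205 is 48 nt long at chr11:4768226-4768273, and that of Nf2-202 is 33 nt long at chr11:4780590-4780622, both on the minus strand. Both follow the same 24 nt, in lower case, and capitals mark the alternative end without its stop codon.

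Nf2-205: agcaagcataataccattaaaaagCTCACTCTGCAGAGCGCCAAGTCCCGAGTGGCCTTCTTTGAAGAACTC

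Nf2-202: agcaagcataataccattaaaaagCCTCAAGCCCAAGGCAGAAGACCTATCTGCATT

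The Tead1 transcript with the most TPM, Tead1-209, is a short model of 646 nt that GENCODE classes as a retained intron. Its last exon, 487 nt on the plus strand, runs through a 63-nt optional coding exon, the 89-nt intron after it and the next 63-nt coding exon. It then goes on for 272 nt beyond that exon, to chr7:112842374. Only the part at chr7:112841888-112842102 is shown. Capitals mark the retained 89-nt intron at chr7:112841951-112842039, and both exons are in lower case.

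Tead1-209: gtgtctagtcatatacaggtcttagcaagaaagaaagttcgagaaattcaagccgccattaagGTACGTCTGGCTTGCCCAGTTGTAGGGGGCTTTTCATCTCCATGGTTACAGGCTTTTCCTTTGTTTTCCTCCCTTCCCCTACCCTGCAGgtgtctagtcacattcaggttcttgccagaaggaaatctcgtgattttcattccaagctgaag

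The libraries held 44567153 and 25677702 expected counts, the authors' estimates of reads per gene, in replicates 1 and 2, so replicate 1 is the deeper. Spike-ins took 3.08% and 2.05% of them. All 8 stomach gland markers were detected in both libraries, with summed levels of 540 and 884 TPM (a length-corrected share of all transcripts in the library), as were all 8 squamous markers, with 4439 and 7491 TPM. Detected means 1 TPM or more in both libraries. RNA of marker genes of other tissues was found too. All 6 pancreas markers were detected at summed levels of 8516 and 9738 TPM, and all 10 skeletal muscle markers at 2419 and 201 TPM. The 8 smooth muscle, 8 mesenchyme, 7 simple epithelium, 5 mesothelium, 5 endothelium and 5 blood markers were all detected, and 0 of 4 lung and trachea markers were.

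Of the 10 Hippo and Tead genes, 9 were detected, and Tead4 was the exception. Over all genes, 15372 of 43346 were detected (35.5%). The median over the 10 genes was 14.0 ± 0.293 TPM (SD, n = 2), beside a median of 15.4 TPM over all detected genes. From highest to lowest mean TPM, the order was Tead2, Nf2, Amotl2, Yap1, Tead1, Wwtr1, Lats2, Tead3, Lats1 and Tead4. Of the 9 neighbouring pairs in this order, 7 differed by more than the SD of their log2 difference, taken on log2(TPM + 0.1). Amotl2 and Yap1 differed by 0.07 ± 0.11 and Wwtr1 and Lats2 by 0.04 ± 0.09 (SD, n = 2), so their order is not set by these libraries. An exact two-sided sign-flip permutation test over 2 replicates cannot give a p below 0.5, so each level difference is a description.

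**Figure D1:**
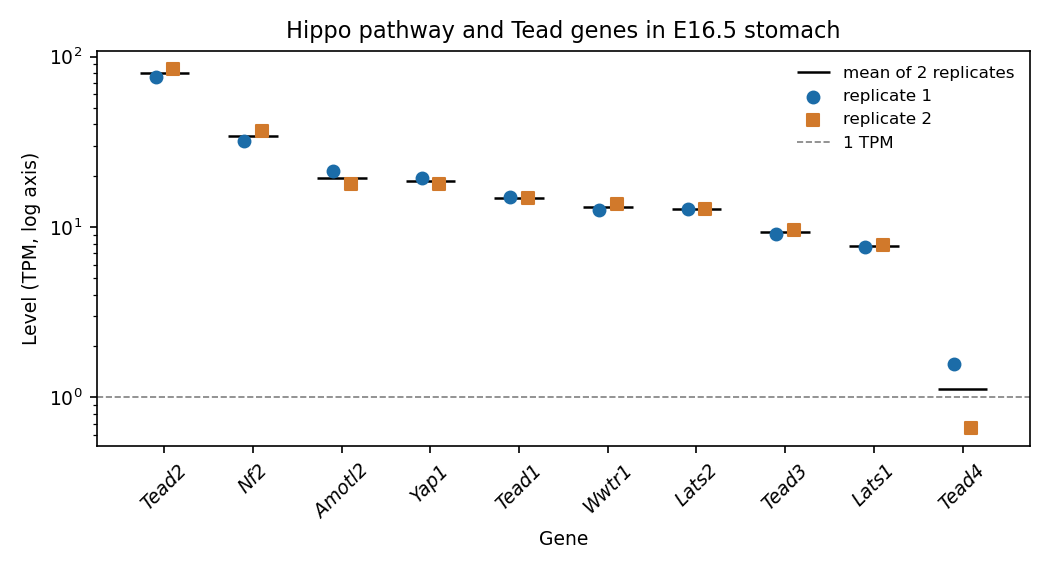
Level of each of the 10 genes in TPM on a log axis, with 1 point per replicate, a bar at the mean of both and a dashed line at 1 TPM. Tead2 stands highest at 75.5 and 84.8 TPM, 8 genes lie between 7.61 and 36.5 TPM, and Tead4 lies lowest at 1.58 and 0.66 TPM.

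The coactivators were both expressed at moderate levels, with Yap1 above Wwtr1. Yap1 (ENSMUSG00000053110, chromosome 9, 7931999 to 8004596, minus strand) was at 19.3 TPM in replicate 1 and 17.9 TPM in replicate 2, a mean of 18.6 ± 0.969 TPM (SD, n = 2). Wwtr1 (ENSMUSG00000027803, chromosome 3, 57455649 to 57575910, minus strand) was at 12.5 and 13.6 TPM, a mean of 13.1 ± 0.778 TPM (SD, n = 2). Both Yap1 values lay above both Wwtr1 values. Yap1 exceeded Wwtr1 by 0.50 ± 0.16 on the log2 scale, which is 1.42-fold and more than the spread between the replicates. Yap1 therefore held 58.7% ± 2.71 of their summed TPM (SD, n = 2).

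Tead2 dominated the Tead family. It was at 75.5 TPM in replicate 1 and 84.8 TPM in replicate 2, a mean of 80.2 ± 6.62 TPM (SD, n = 2), above 86.6% of detected genes. Tead2 lies on chromosome 7 from 45215753 to 45233644 on the plus strand (ENSMUSG00000030796). It is known for broad expression in early embryos. Tead1 (ENSMUSG00000055320, chromosome 7, 112679318 to 112906807, plus strand), a factor known for its part in heart development, was at 14.9 TPM in both libraries (14.9 ± 0.0212, SD, n = 2). Tead3 (ENSMUSG00000002249, chromosome 17, 28331671 to 28350817, minus strand) was at 9.12 and 9.60 TPM, a mean of 9.36 ± 0.339 TPM (SD, n = 2). The values of these 3 genes did not overlap between genes.

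Tead4, a factor known for its part in the trophectoderm of the early embryo and in skeletal muscle, was lowest. Tead4 (ENSMUSG00000030353, chromosome 6, 128224288 to 128300823, minus strand) was at 1.58 TPM in replicate 1 and 0.66 TPM in replicate 2, a mean of 1.12 ± 0.651 TPM (SD, n = 2). It rested on 107 and 25 expected counts. The authors' intervals for Tead4, from 1.43 to 2.62 TPM and from 0.60 to 2.00 TPM, overlap, and their level is not stated in the files.

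As shares of the summed Tead TPM, Tead2 held 75.9% ± 1.75, Tead1 14.1% ± 0.862, Tead3 8.88% ± 0.207 and Tead4 1.08% ± 0.681 (SD, n = 2 each). Tead2 exceeded Tead3 by 3.08 ± 0.07 on the log2 scale, which is 8.47-fold. Tead1 lay below Tead2 by a log2 difference of -2.42 ± 0.12 and above Tead3 by 0.66 ± 0.05. The differences from Tead4 were wider and less precise, at 6.15 ± 0.93 for Tead2, 3.73 ± 0.81 for Tead1 and 3.07 ± 0.86 for Tead3 (SD, n = 2). All 6 Tead differences exceeded their SD. The values of Tead1 depended on which transcripts were summed. On coding transcripts alone, Tead1 held 6.46% ± 0.538 of the family, Tead2 84.8% ± 0.534, Tead3 7.37% ± 0.748 and Tead4 1.38% ± 0.752 (SD, n = 2 each). The log2 difference of Tead1 from Tead2 was then -3.69, that from Tead4 2.22 and that from Tead3 -0.19, which turned their order.

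Of the kinases that phosphorylate the coactivators, Lats2 lay above Lats1. Lats2 (ENSMUSG00000021959, chromosome 14, 57689662 to 57758388, minus strand) was at 12.8 and 12.7 TPM, a mean of 12.7 ± 0.0636 TPM (SD, n = 2). Lats1 (ENSMUSG00000040021, chromosome 10, 7681214 to 7716460, plus strand) was at 7.61 and 7.86 TPM, a mean of 7.74 ± 0.177 TPM (SD, n = 2). The genes' values did not overlap. Lats2 exceeded Lats1 by 0.71 ± 0.04 on the log2 scale, 1.64-fold, and held 62.2% ± 0.655 of their summed TPM (SD, n = 2).

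Both upstream proteins lay above the kinases. Nf2 (ENSMUSG00000009073, chromosome 11, 4765845 to 4849536, minus strand) was at 32.1 and 36.5 TPM, a mean of 34.3 ± 3.08 TPM (SD, n = 2), second to Tead2. Amotl2, an angiomotin-like protein that binds Yap1 at cell junctions and is also a known target of Yap1 and Tead, was at 21.3 and 17.8 TPM, a mean of 19.5 ± 2.49 TPM (SD, n = 2). Amotl2 (ENSMUSG00000032531) lies on chromosome 9 from 102716672 to 102733418 on the plus strand.

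Transcript values showed which isoforms the gene levels came from. The transcript tables held 89 transcripts of the 10 genes, and the transcript with the most TPM was the same in both libraries for 10 of 10 genes. In M21, 78 of the 89 are listed under the same gene, 72 of them with the same length. The other 11, of which 9 belong to Tead2, are not listed for their gene there and were not counted as coding. Reads shared between transcripts were divided by the authors' method, so a transcript's share is an estimate.

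Yap1 was split between the isoforms whose sequences are shown above. Yap1-202, which skips the 48-nt exon, held 62.2% of the Yap1 TPM in replicate 1 and 73.4% in replicate 2, a mean of 67.8% ± 7.98 (SD, n = 2). Yap1-201, which includes it, held 30.4% and 20.1%, a mean of 25.3% ± 7.27 (SD, n = 2). Among all coding transcripts that span the exon, 35.2% and 24.1% of the TPM carried it (29.7% ± 7.81, SD, n = 2). Skipping was the larger share in both libraries. Wwtr1 had close to 1 form, with Wwtr1-201 at 99.2% ± 0.158 of its TPM (SD, n = 2).

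Nf2 ended mostly in the longer segment shown for Nf2-205. Among coding transcripts of Nf2 that span its position, 86.2% of the TPM in replicate 1 and 89.1% in replicate 2 ended that way (87.7% ± 2.03, SD, n = 2). The end shown for Nf2-202 was carried by 14.1% and 13.6% (13.9% ± 0.405, SD, n = 2). Shares were computed over the transcripts that span each segment, so these do not have to sum to the whole. Nf2-205 alone held 73.4% ± 0.155 of the Nf2 TPM.

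Tead1 was the gene whose level depended most on a non-coding model. Tead1-209, the retained-intron model shown above, held 58.3% and 60.1% of the Tead1 TPM, a mean of 59.2% ± 1.27 (SD, n = 2), with 8.68 and 8.93 TPM. It held only 9.38% and 9.81% of the Tead1 expected counts, 145.7 and 83.9 reads. TPM divides reads by transcript length, and this model is short. Tead1-202, the leading coding transcript at 9480 nt, held 31.3% ± 1.05 of the TPM and 88.4% and 85.6% of the counts. Coding transcripts of Tead1 summed to 5.01 and 5.29 TPM, a mean of 5.15 ± 0.198 TPM (SD, n = 2), or 34.6% ± 1.38 of the gene. The 63-nt exon at the start of the printed Tead1-209 stretch was in 0.810% and 2.78% of the TPM of coding transcripts spanning it (1.80% ± 1.40, SD, n = 2).

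On coding transcripts alone, Tead1 moved from rank 5 to rank 9 of the 10 genes. Coding Tead3 was at 5.64 and 6.11 TPM, a mean of 5.88 ± 0.332 TPM (SD, n = 2) or 62.7% ± 1.23 of the gene. Tead1 then lay below Tead3 in both libraries. A further Tead3 transcript of 2616 nt, not listed for the gene in M21, held 1.72 and 2.02 TPM and was not in the coding sum. The coding sum was taken as an alternative chosen after the values were seen.

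Coding transcripts held most of the other genes. They held 93.1% of Tead2 in replicate 1 but 77.0% in replicate 2, and 96.4% of Yap1, 96.4% of Nf2, 91.1% of Amotl2 and 99.6% of Lats2 on average. For Wwtr1, Lats1 and Tead4 they held 100%. Tead2 was led by Tead2-201, with 80.5% and 62.8% of its TPM (71.6% ± 12.5, SD, n = 2). A 460-nt Tead2 transcript (ENSMUST00000143734), not listed for the gene in M21, was at 0.96 TPM in replicate 1 and at 13.4 TPM in replicate 2. The coding TPM of Tead2 was 70.2 and 65.3, higher in replicate 1, while its gene TPM was higher in replicate 2. Amotl2-211 was listed at 0 TPM in replicate 1 and at 4.41 TPM in replicate 2, on 0 and 312 expected counts, whereas Amotl2-203 led in both with 40.2% ± 8.75 of the TPM (SD, n = 2). Lats1-202 held 99.6% ± 0.558, Lats2-201 89.6% ± 1.56, Tead3-201 45.1% ± 1.50 and Tead4-203 52.1% ± 5.63 (SD, n = 2). The lead of Tead4-203 was narrow, at 0.76 TPM against 0.75 TPM for Tead4-201 in replicate 1. In posterior mean TPM of replicate 2, Tead4-205 led. By expected counts, Tead4-201 held more than Tead4-203, and Amotl2-201 more than Amotl2-203, in both libraries.

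**Figure D2:**
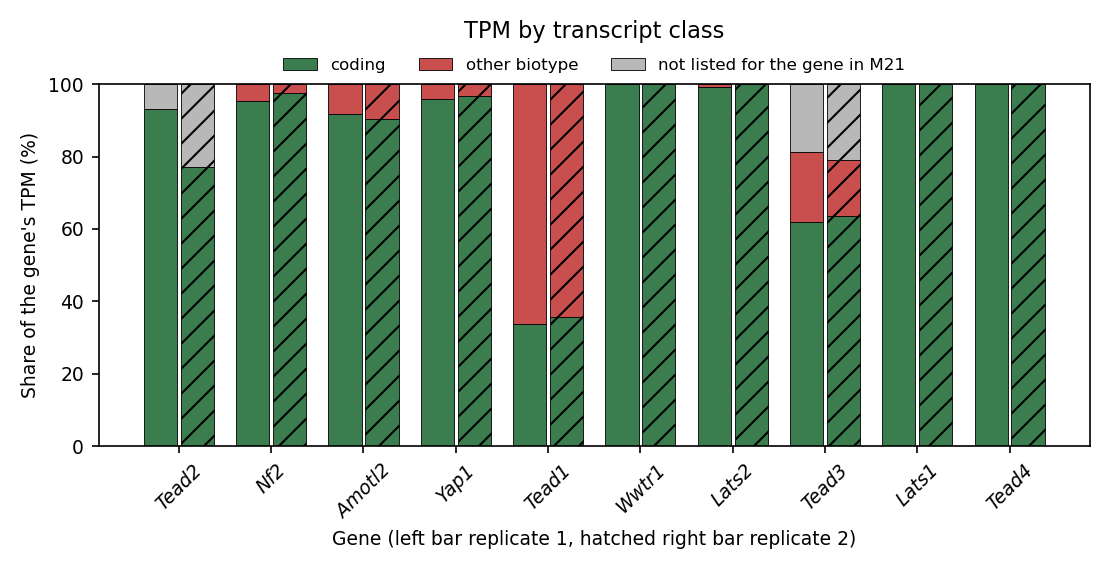
Share of each gene's TPM, in percent, held by coding transcripts, transcripts of other classes, and transcripts not listed for the gene in M21, with a bar for each replicate. Tead1 is the gene with the lowest coding share, 34.6% on average, and the coding share of Tead2 is 93.1% in replicate 1 and 77.0% in replicate 2.

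Setting replicate 1 over replicate 2 showed how stable the genes were between the pools. The log2 ratio came from expected counts scaled by the TMM method, with a prior count of 2. Each side is 1 library, so no test of a difference between conditions was possible, and the intervals cover counting error only, at the 95% level. Of the 17763 genes past the filter on low counts, 636 differed by more than 2-fold (3.58%). Of the 10 Hippo and Tead genes, all past the filter, 1 did, and this was Tead4, higher in replicate 1, as were 1.24% of all genes, while 0 of the 10 were more than 2-fold higher in replicate 2, beside 2.34% of all genes. Intervals excluded equal levels for 5 of 10, beside 39.4% of all genes, and nothing is read from that count. The median log2 ratio of the 10 was 0.05 and that of all genes 0.00. For 9 of the 10 the ratio lay between -0.14 and 0.23, and the 95th percentile of the absolute ratio of all genes was 0.83.

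Tead4 was higher in replicate 1 by a log2 ratio of 1.25, 2.37-fold, with a counting interval from 0.66 to 1.99. Of all genes, 2.46% had a larger absolute ratio. Scaled to spike-in totals, which moved the median of all genes to -0.57, the Tead4 ratio was 0.69 and no longer beyond 2-fold, and the sign changed for 5 of the 10 genes. The next ratios were Amotl2 at 0.23 (0.12 to 0.33) and Yap1 at 0.15 (0.05 to 0.26). Nf2 had -0.14 (-0.22 to -0.07) and Tead2 0.10 (0.02 to 0.17), but on deposited gene TPM the Tead2 ratio turned to -0.17. The direction of Tead2 thus depends on the unit and on the transcripts summed, as its coding TPM was higher in replicate 1. For Amotl2, 32.1% of genes had a larger absolute ratio, and for Yap1 46.4%. The intervals of Tead1 (0.06), Lats2 (0.05), Lats1 (-0.02), Tead3 (-0.04) and Wwtr1 (-0.09) included 0.

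Markers of skeletal muscle were also higher in replicate 1. All 10 were more than 2-fold higher there, beside 1.24% of all genes. Their log2 ratios ran from 1.53 for Myod1 to 4.85, with a median of 4.38. The list was chosen with earlier results of these data known, so this count is a description. Acta1, skeletal actin, was at 906 TPM in replicate 1 and 101 TPM in replicate 2, a log2 ratio of 3.20. Myl1 and Tnnc2 had ratios of 4.59 and 4.56, and Ckm 2.86. The part of these cells in the Tead4 difference was not tested. The stomach gland markers had a median log2 ratio of -0.65 and the squamous markers -0.44, and mesenchyme markers 0.00. Their part in the ratios was not tested either.

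**Figure D3:**
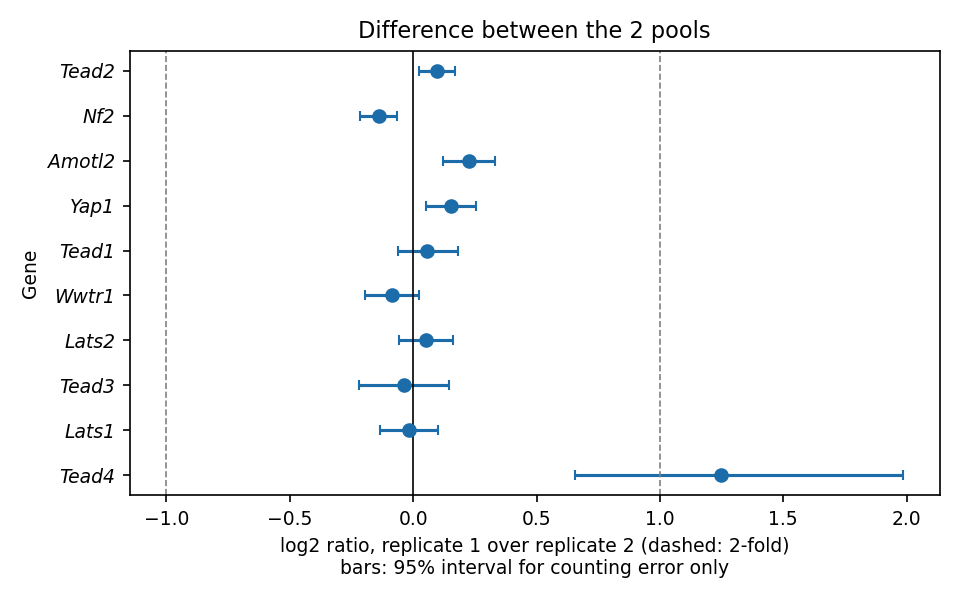
Log2 ratio of replicate 1 over replicate 2 for each of the 10 genes, with a bar for the 95% counting interval, on a linear axis in log2 units with dashed lines at 2-fold. Tead4 is the 1 gene beyond 2-fold, at 1.25, and the other 9 lie between -0.14 and 0.23.

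The wider pathway was read from 6 lists of other genes. The 5 kinase partners were all detected, with a median of 16.6 ± 0.643 TPM (SD, n = 2). The adaptor Mob1a was highest at 56.0 ± 1.44 TPM, above the kinases Stk3 at 30.4 ± 0.226 TPM and Stk4 at 16.6 ± 0.643 TPM, and above Mob1b at 14.9 ± 0.990 TPM (SD, n = 2). Sav1, the scaffold of Stk3 and Stk4, was at 1.50 and 1.01 TPM, the lowest of the 5. Its log2 ratio was 0.60, with an interval from 0.09 to 1.16 on 112 and 42 counts.

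The 19 matched genes of the upstream list, which hold cell polarity and junction proteins and further kinases, were all detected, with a median of 10.5 ± 0.113 TPM (SD, n = 2). Crb3, an apical polarity protein, was highest at 52.8 ± 2.93 TPM, followed by Llgl1 at 37.1 ± 2.96, Taok2 at 31.9 ± 2.18 and Taok3 at 30.5 ± 0.658 TPM, and Fjx1 was lowest at 2.78 ± 0.559 TPM (SD, n = 2). The STRIPAK complex joins a phosphatase to kinases and opposes Hippo signalling, and 9 of its 10 genes were detected, with a median of 38.4 ± 0.124 TPM (SD, n = 2). Mob4 led it at 125 ± 3.20 TPM, with Stk25 at 114 ± 6.90, Fgfr1op2 at 80.1 ± 0.799 and Strn4 at 61.6 ± 8.65 TPM, while Strip2 was at 0.36 ± 0.0849 TPM (SD, n = 2). All 12 genes for binding and turnover of Yap1 and Wwtr1 were detected, with a median of 14.9 ± 0.520 TPM (SD, n = 2). The kinases Csnk1d at 89.8 ± 7.90 and Stk38 at 89.0 ± 1.22 TPM led them, with Limd1 at 40.2 ± 1.26 and Csnk1e at 27.3 ± 1.03 TPM, and Wtip was lowest at 3.45 ± 0.177 TPM (SD, n = 2).

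The Vgll proteins bind Tead factors without a DNA-binding domain of their own, and 2 of the 4 were detected. Vgll4, which competes with Yap1 for Tead proteins, was at 50.8 and 57.1 TPM, a mean of 53.9 ± 4.46 TPM (SD, n = 2), above Yap1 and Wwtr1 in both libraries. Vgll3 was at 3.37 ± 0.0566 TPM (SD, n = 2). Vgll2, a cofactor known from skeletal muscle, was at 1.92 TPM in replicate 1 and listed at 0 in replicate 2, on 88 and 0 expected counts. With an assumed floor of 3 counts in replicate 2, Vgll2 would be 16.8-fold higher in replicate 1, a value set by that floor and not measured. Its counting interval began at a log2 ratio of 3.74. The skeletal muscle markers were also higher in replicate 1, and the part of these cells in the Vgll2 difference was not tested. Vgll1 was at 0.06 and 0.03 TPM.

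Of 20 known targets of Yap1 and Wwtr1, 18 were detected, with a median of 12.0 ± 0.481 TPM (SD, n = 2). Ccdc80 was highest at 80.9 ± 1.12 TPM, followed by Axl, a receptor tyrosine kinase, at 67.0 ± 0.686, Rbms3 at 60.9 ± 0.735 and Asap1 at 43.3 ± 4.61 TPM (SD, n = 2). Ankrd1, a protein of heart and skeletal muscle, was lowest, at 0.39 TPM in replicate 1 and listed at 0 in replicate 2, on 20 and 0 counts. With the same assumed floor, Ankrd1 would be 3.82-fold higher in replicate 1, and its counting interval began at a log2 ratio of 1.50. Over the 67 other genes of these 6 lists, 62 were detected and 64 passed the filter. None of the 64 differed by more than 2-fold, beside 3.58% of all genes. A gene needs enough counts in each library to pass, and Vgll2 and Ankrd1, listed at 0 in replicate 2, did not pass. The intervals excluded equal levels for 11 in the direction of replicate 1 and for 17 in that of replicate 2, beside 18.8% and 20.6% of all genes. The targets had a median log2 ratio of -0.05, the upstream list -0.03, STRIPAK -0.04, the binding and turnover list -0.02 and the kinase partners 0.02.

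**Figure D4:**
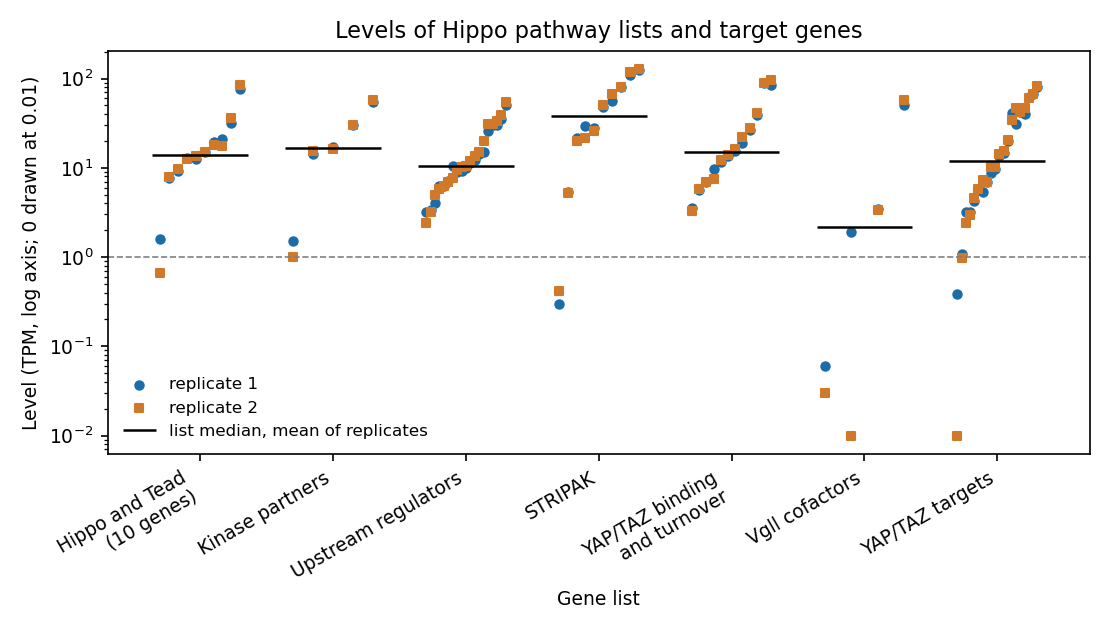
Level in TPM on a log axis of each gene in the 6 other pathway and target lists and of the 10 Hippo and Tead genes, with 1 point per gene and replicate, values of 0 drawn at 0.01, a dashed line at 1 TPM and a black line at the median of each list. The STRIPAK list has the highest median, 38.4 TPM, and the Tead cofactor list the lowest, 2.17 TPM.

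Promoter windows of the 10 genes were searched for the Tead motif GGAATG and its reverse complement CATTCC on both strands, in the 250 bases before each RefSeq start on GRCm38.p6. Of the 10 genes, 8 have a window in the table, and 4 of these, Yap1, Wwtr1, Tead3 and Amotl2, held a match. Several genes have more than 1 start, and 6 of their 13 windows held one. The 2 windows of Wwtr1 overlap and hold the same single match, 136 bases before one start and 170 before the other, so it is counted for both. Over all windows, 4153 of 32851 (12.6%) held one, and over genes 3880 of 27025 (14.4%). A match is a run of letters and not a bound site, and no binding was measured. Windows are shown for the coactivator pair and for Amotl2, which is itself a known Yap1 target. These windows were picked because a match is present in them. The windows of Tead2, Lats1, Lats2 and Nf2 held no match and are not shown, nor are those of Tead3. Capitals mark the match, which starts 141 bases before the start of Yap1, 136 before the farther upstream start of Wwtr1 and 65 before that of Amotl2. The windows are at chr9:8004597-8004846 on the minus strand for Yap1, chr3:57575911-57576160 on the minus strand for Wwtr1 and chr9:102717554-102717803 on the plus strand for Amotl2.

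Yap1: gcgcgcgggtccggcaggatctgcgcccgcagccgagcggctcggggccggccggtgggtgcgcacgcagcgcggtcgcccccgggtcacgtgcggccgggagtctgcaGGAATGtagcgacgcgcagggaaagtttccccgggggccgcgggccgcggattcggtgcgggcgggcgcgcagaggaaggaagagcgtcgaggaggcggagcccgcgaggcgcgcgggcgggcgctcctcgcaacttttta

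Wwtr1: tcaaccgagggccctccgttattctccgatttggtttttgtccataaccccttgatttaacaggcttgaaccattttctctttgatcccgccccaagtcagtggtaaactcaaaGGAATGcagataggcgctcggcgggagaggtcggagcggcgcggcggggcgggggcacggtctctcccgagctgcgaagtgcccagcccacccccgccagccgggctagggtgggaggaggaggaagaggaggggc

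Amotl2: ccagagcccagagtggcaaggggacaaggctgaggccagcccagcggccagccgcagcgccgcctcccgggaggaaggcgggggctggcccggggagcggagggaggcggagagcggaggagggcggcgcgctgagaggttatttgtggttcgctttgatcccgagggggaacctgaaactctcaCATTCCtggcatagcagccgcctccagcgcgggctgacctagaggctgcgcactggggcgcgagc

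Some genes overlap others, and whether counting used strand is not given in the sources used here, so reads in an overlap cannot be told apart. Tead2 overlaps Cd37 on the opposite strand, which was at 4.01 and 2.23 TPM. Lats2 overlaps the processed pseudogene Gm20430, at 7.72 and 4.43 TPM, and Wwtr1 overlaps Gm16016, at 1.16 and 0.90 TPM, both on the opposite strand. Also on the opposite strand, Lats2 overlaps the snoRNA gene Gm26440, at 0 and 1.94 TPM, and Tead4 overlaps Gm21893, at 0 TPM in both libraries. Yap1 overlaps Gm20416, at 0.09 and 0 TPM, and Tead1 overlaps 2310014F06Rik, at 0.17 and 0 TPM, again on the opposite strand. In M21, Lats2 also overlaps the protein-coding gene Gm49361 and Tead1 the miRNA gene Gm44462, on the same strand in both cases, and neither was matched to a row, so they were not analysed here.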

How the data were processed

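Total RNA of 2 pools of stomach was measured, 1 library per replicate. The build was mm10 and the annotation GENCODE M4, per text files deposited with the tables. Which aligner and which quantifier were used is not given in the sources used here. For genes and transcripts the authors deposited expected counts, which are estimated reads. The authors also deposited TPM, with posterior means, and FPKM. The bounds of the authors' TPM intervals, a score of unstated level, and the percent of a gene's TPM per transcript (IsoPct) were deposited beside them; the shares here were recomputed from TPM.

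Of 69691 rows, 43346 Ensembl genes were used, and 96 spike-ins and 26249 other features (74.99 and 27 counts) stayed out of library sizes. Symbols came from GENCODE M21, matching 42442 genes; Map4k6 was not matched. In edgeR 4.0.16 under R 4.3.3, rounded expected counts went through filterByExpr (1 group) and TMM scaling, with factors of 1.01 and 0.992. Counting intervals are exact binomial. Between the replicates, edgeR gave a biological coefficient of variation of 17.4%. To check for a library deposited more than once, the replicates' counts gave a chi-square of 26.5 per degree of freedom, so they were kept as separate samples. DESeq2 1.42.0 gave an alternative. Level differences used a pseudocount of 0.1 TPM. Plots were drawn with matplotlib 3.10.9, and other steps ran in Python 3.11.15 with scipy 1.17.1, pandas 2.3.3 and numpy 2.4.6. The ratio step was tested on simulated data with less spread between replicates than measured here. Changes were planted only in genes with high counts, so the test does not cover genes with few counts, such as Tead4.

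The genes and lists were chosen with earlier results of these data known. Named were the 10 genes, the 4 highest and the lowest of each pathway list, all beyond 2-fold, and, of skeletal muscle markers, the 4 highest and the lowest; other marker lists are given by their sums or counts. Promoter sequences are shown for 3 of the 10 genes, picked because their windows held a match, and for Ccn1. Protein sequences are not used here.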

Additional observations from a re-analysis of the deposited data

How the results depend on the processing

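With 2 libraries of 1 group, depth and the number of replicates limit every value, and Tead4, at 107 and 25 counts, is the least precise. No paired analysis was possible because there is only 1 group. Scaling to spike-in totals moved the median log2 ratio of all genes to -0.57 and that of the 10 genes to -0.52, left 0 of the 10 beyond 2-fold (Tead4 at 0.69), changed the sign for 5 of the 10, and put 1427 genes beyond 2-fold, 7.78% of them higher in replicate 1 against 34.6% of 636 with TMM; with no filter 2724 were beyond 2-fold, 47.0% of them higher in replicate 1. The ratios of all 10 genes stayed in their counting intervals on DESeq2 size factors, library totals, no filter and a prior count of 0.5. On TPM 9 did, and Tead2 turned to -0.17. On spike-in totals only 1 of the 10 did, Tead4. The median level of the 10 genes was 9.53 in FPKM, 14.5 in posterior mean TPM and 12.9 on coding transcripts, the alternative chosen after the data were seen. On coding transcripts Tead1 minus Tead3 reversed to -0.19, and Tead1 minus Tead2 was -3.69, Tead1 minus Tead4 2.22 and Tead2 minus Tead3 3.51. A pseudocount of 1 gave 2.97 for Tead2 minus Tead3 and 0.65 for Lats2 minus Lats1, which was 0.86 in posterior mean TPM. Leaving out replicate 2 made 10 genes detected and leaving out replicate 1 gave 9; posterior mean TPM and a threshold of 0.5 TPM gave 10. In posterior mean TPM, 6 of the 10 leading transcripts' shares moved by more than 1 SD and 4 by less; Tead4-203 was at 30.7% and Tead3-201 at 34.0%. With 2 replicates, leaving out either moves a mean by less than 1 SD whatever the values, so those alternatives say nothing about stability.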

Other observations

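The Tead motif was also searched before the starts of the known Yap1 and Wwtr1 targets. Of 13 target genes with a window, 5 held a match, Ccn1, Ankrd1, Axl, Crim1 and Ptpn14, beside 14.4% of all genes with a window. In the Ccn1 window, at chr3:145649986-145650235 on the minus strand of GRCm38.p6, the match lies 103 bases before the RefSeq start and is in capitals. Ccn1, a secreted matrix protein, was chosen after its values were seen, and was at 42.4 and 42.1 TPM.

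Ccn1: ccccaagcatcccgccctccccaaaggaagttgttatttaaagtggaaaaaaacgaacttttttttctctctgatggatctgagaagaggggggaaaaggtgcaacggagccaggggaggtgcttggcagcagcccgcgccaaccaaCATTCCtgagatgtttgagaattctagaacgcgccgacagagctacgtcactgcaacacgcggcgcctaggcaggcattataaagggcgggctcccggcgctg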
